A study of Mus musculus with 6 samples.

Results

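The genes described here make and load the major histocompatibility complex (MHC) class I molecule of the mouse: the heavy chains H2-K1, H2-D1, H2-Q4, H2-Q6, H2-Q7, H2-T22 and H2-T23, the light chain B2m, and the peptide pump Tap1 and Tap2. They are 10 of the 32285 genes in the deposited tables, taken by symbol, and 20 further class I genes are described beside them as one list. The 10 were selected on measured values of these same libraries, in particular the level of H2-Q6 in the GVHD and BM libraries, so that contrast is given as a description. Their UMIs (unique molecular identifiers, 1 per captured RNA molecule) were summed in myeloid-, T- and epithelial-gated cells of 6 single-cell RNA libraries of mouse colon.

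Libraries came from transplanted mice. The GVHD library held macrophages of mice given bone marrow with added spleen cells, which leads to graft-versus-host disease, in which donor T cells attack recipient tissue. Its reference, the BM library, held macrophages of mice given bone marrow alone. A further macrophage library and a T-cell library are labelled IL34KO, for recipients lacking IL-34, a ligand of the macrophage receptor CSF1R, and each has a partner from wild-type (WT) recipients. Cells were sorted as donor-derived, CD11b+ CD64+ for macrophages, in all of them. The labels do not name the mouse strains of donors and recipients, their ages and sex, the number of mice pooled or whether the WT and IL34KO recipients received spleen cells. Each group was 1 library, so no difference below has a replicate check or a test; brackets hold exact 95% intervals that cover counting error only.

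Class I molecules sit on nearly every nucleated cell and show peptides from inside the cell to CD8+ T cells. TAP carries peptides into the endoplasmic reticulum, where they are loaded on a heavy chain paired with B2m, and interferons raise transcription of most of these genes. H2-K1 and H2-D1 are classical and highly polymorphic. The Q and T regions hold non-classical genes, and the number and sequence of Q genes differ between inbred strains, while reads here were aligned to 1 reference genome. In transplantation class I molecules are among the main targets of donor T cells.

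After the filters 2698 cells of the GVHD library and 2546 of the BM library were used, 6494 and 5245 of the IL34KO and WT macrophage libraries, and 8569 and 14061 of the IL34KO and WT T-cell libraries. Library totals ran from 43660889 to 114425913 UMIs, and the median cell held 15578, 11754, 10816, 12905, 6274.0 and 6162.0 UMIs in that order. The BM library shared 2502 of its 5874 barcodes with the GVHD library, 2486 of them with more UMIs in GVHD, and these were left out of BM; other pairs of libraries shared 5 to 75 barcodes. Gated myeloid cells numbered 2350 and 2132 in GVHD and BM, 3729 and 3819 in the macrophage libraries labelled IL34KO and WT, and 4932 and 8470 in the T-cell libraries labelled IL34KO and WT. Myeloid cells therefore outnumbered T cells in the libraries labelled T cells too, where T-gated cells were 1710 and 2899. T-gated cells numbered 169 in GVHD, 146 in BM, 286 in the macrophage library labelled IL34KO and 121 in its WT partner, and epithelial-gated cells were 37 in GVHD, 9 in BM and 368 to 931 elsewhere. All 12 markers of a gate's own list were detected in each of the 18 pairs of library and gate. Il34 was at 2.30 CPM (UMIs per 1000000 UMIs of all genes) in the macrophage library labelled IL34KO (2.02 to 2.61) and 1.76 in WT (1.51 to 2.03), and at 1.55 in the T-cell library labelled IL34KO (1.30 to 1.84) and 1.18 in WT (0.989 to 1.40). It was thus not lower in either library labelled IL34KO, a limit on every direction read from them. These levels cover all barcodes of a library without a gate, so its mix of cells enters them. Epithelial-gated cells were 884 and 368 in the IL34KO and WT macrophage libraries, and 810 and 931 in the IL34KO and WT T-cell libraries. The labels do not name the deleted part of the gene.

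In GRCm38, the build the files name as mm10, 9 of the 10 genes lie on chromosome 17. H2-K1 (ENSMUSG00000061232) spans 33996017 to 34000347, Tap1 34187553 to 34197225, Tap2 34203527 to 34216321, H2-D1 35262730 to 35267499, H2-Q4 35379617 to 35385290, H2-Q6 (ENSMUSG00000073409) 35424850 to 35430055 and H2-Q7 (ENSMUSG00000060550) 35439155 to 35443773. H2-T23 (36029773 to 36032855) and H2-T22 (36037128 to 36042747) lie further along, and B2m lies on chromosome 2 at 122147686 to 122153083. All are annotated as protein coding. The sequences 5′ of the listed starts of H2-Q6 and H2-Q7, whose levels separated the libraries, are shown with those of their neighbour H2-Q4 and of H2-K1, whose levels did not separate them in the same way. They are 250 bases each from RefSeq on GRCm38.p6, at chr17:35424600-35424849, chr17:35438905-35439154 and chr17:35379367-35379616 (plus strand) and chr17:34000348-34000597 (minus strand), 5′ to 3′, with matches to GGGGANTCC, GAANNGAA and TGACGT on either strand in capitals.
H2-Q6: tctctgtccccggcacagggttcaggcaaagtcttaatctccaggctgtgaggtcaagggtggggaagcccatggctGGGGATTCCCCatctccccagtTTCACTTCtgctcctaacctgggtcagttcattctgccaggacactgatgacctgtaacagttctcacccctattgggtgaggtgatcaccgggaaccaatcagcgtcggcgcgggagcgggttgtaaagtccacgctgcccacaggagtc
H2-Q7: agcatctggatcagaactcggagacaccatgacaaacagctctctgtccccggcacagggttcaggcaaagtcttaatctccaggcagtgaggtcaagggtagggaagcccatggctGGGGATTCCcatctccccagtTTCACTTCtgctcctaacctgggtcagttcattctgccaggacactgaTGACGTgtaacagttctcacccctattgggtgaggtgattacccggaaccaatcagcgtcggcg
H2-Q4: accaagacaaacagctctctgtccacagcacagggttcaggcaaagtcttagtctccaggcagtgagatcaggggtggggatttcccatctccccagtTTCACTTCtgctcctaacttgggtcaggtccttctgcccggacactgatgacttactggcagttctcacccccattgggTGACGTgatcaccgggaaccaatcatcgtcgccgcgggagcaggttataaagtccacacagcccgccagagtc
H2-K1: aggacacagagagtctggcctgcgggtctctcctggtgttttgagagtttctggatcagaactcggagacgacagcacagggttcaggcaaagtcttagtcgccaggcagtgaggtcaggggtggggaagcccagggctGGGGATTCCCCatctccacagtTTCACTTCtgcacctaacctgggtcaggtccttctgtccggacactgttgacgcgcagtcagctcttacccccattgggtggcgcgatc

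GGGGANTCC, the form of sites bound by NF-kappaB proteins, was found in the promoters of H2-K1, H2-D1, H2-Q6 and H2-Q7, against 1.02% of 27025 promoters of the same length. It lay 111, 171, 173 and 133 bases before their listed starts, and in all but H2-Q7 matched on both strands at overlapping positions. H2-Q4 holds ggggatttcc at the same place in its sequence, 1 base longer than this fixed pattern. That H2-Q4 is not counted therefore does not mean that a like site is absent there. GAANNGAA, spaced like sites of interferon regulatory factors and looked for after the others, was found in these 4 and in H2-Q4 and H2-T22, against 17.3% of promoters. GAAANNGAA was found in B2m, H2-T23 and H2-T22 (7.16% of promoters), TGACGT, the core of sites of CREB and ATF proteins, in H2-Q4, H2-Q7 and H2-T22 (6.56%), and TTCNNNGAA, the form of STAT sites, in 0 of 9 (7.18%). The table matched 9 of the 10 genes. These are matches of letters in 1 reference strain and describe no binding; H2-Q4 and H2-Q6 both hold GAANNGAA and differed in how they varied across libraries.

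H2-Q6 and H2-Q7, heavy chains of the Qa-2 family, separated the BM library from the other 5 in myeloid- and T-gated cells. In myeloid-gated cells H2-Q6 stood at 0.941 CPM in GVHD (0.694 to 1.25; 48 UMIs) against 94.0 in BM (90.6 to 97.4), at 2.84 and 2.18 CPM in the IL34KO and WT macrophage libraries, and at 3.22 and 4.07 CPM in the IL34KO and WT T-cell libraries. H2-Q7 stood at 12.6 CPM in GVHD (11.6 to 13.6) against 189 in BM (184 to 194), at 20.7 and 18.8 in the IL34KO and WT macrophage libraries and at 21.3 and 20.1 in the IL34KO and WT T-cell libraries. BM alone was high for both genes and the other 5 libraries lay together. H2-Q6 was 99.8-fold lower in GVHD than in BM (log2 ratio −6.64) and H2-Q7 15.0-fold lower (−3.91); within the mature and the monocyte cells described further on, which differed in share between the libraries, H2-Q6 was 52.7- and 32.4-fold lower and H2-Q7 8.71- and 6.10-fold lower.

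BM was also the highest library in T-gated cells. H2-Q6 was at 7.54 CPM in GVHD (3.03 to 15.5) against 413 in BM (377 to 453), and between 2.07 and 9.90 CPM in the other 4 libraries. H2-Q7 was at 66.7 CPM in GVHD (51.2 to 85.6) against 1089 in BM (1029 to 1152), and between 19.8 and 38.4 CPM in the other 4. GVHD, the lowest library for both genes in myeloid-gated cells, lay within the other 4 for H2-Q6 here and above them for H2-Q7. Few cells carried this level: 5 of the 169 GVHD cells held 41 of the 69 UMIs of both genes (59.4%), with up to 20 in a cell. The log2 ratios of GVHD to BM were −5.78 and −4.03. Fibroblast and endothelial markers also differed between these T-gated cells: the 12 markers, all detected in both, summed to 472 CPM in GVHD and 1462 CPM in BM. Their part in the result was not tested.

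Epithelial-gated cells had another order. H2-Q6 was at 48.2 CPM in GVHD (32.7 to 68.4) against 5.11 in BM (0.129 to 28.5), at 58.2 and 60.6 in the IL34KO and WT macrophage libraries and at 53.2 and 54.6 in the IL34KO and WT T-cell libraries. H2-Q7 was at 165 CPM in GVHD against 10.2 in BM, at 205 and 196 in the macrophage libraries labelled IL34KO and WT and at 209 and 174 in the T-cell libraries labelled IL34KO and WT. BM, the highest in myeloid- and T-gated cells, was the lowest here, on 9 cells with 1 UMI of H2-Q6 and 2 of H2-Q7. The ratio of GVHD to BM was 9.42 for H2-Q6 (1.57 to 384) and 16.1 for H2-Q7 (4.35 to 135). In GVHD and the 4 IL34KO and WT libraries the epithelial level of H2-Q6 was above the myeloid- and T-gated levels of the same library.

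**Figure D1:**
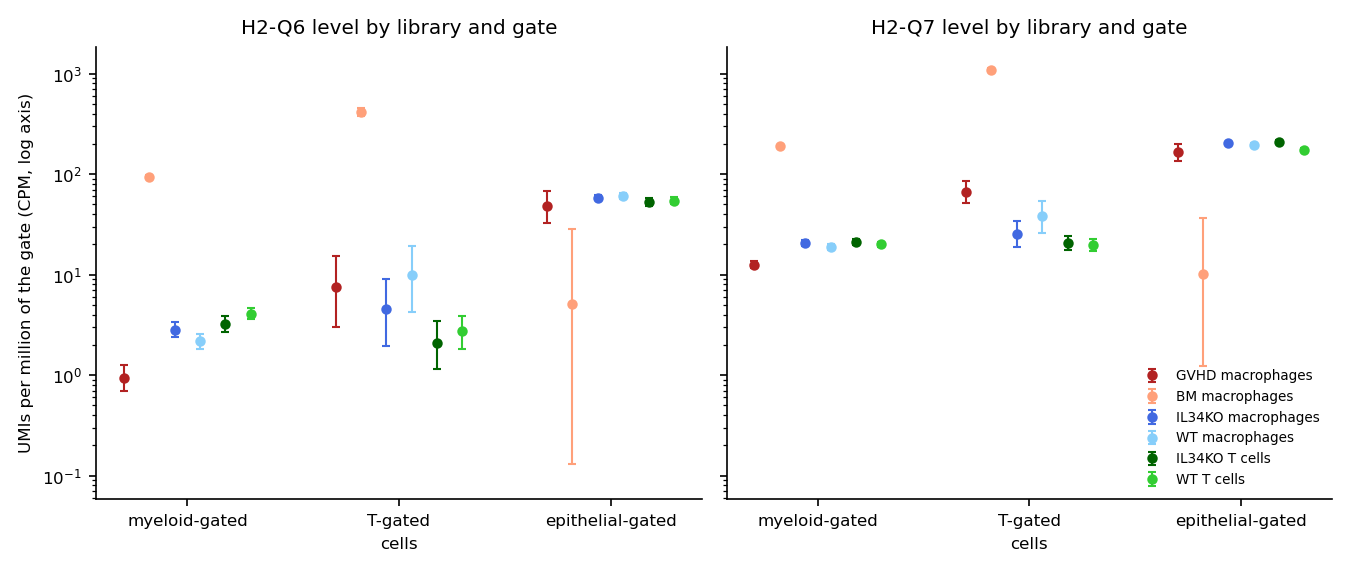
H2-Q6 (left) and H2-Q7 (right) in CPM of the gate (log axis) in myeloid-, T- and epithelial-gated cells of the 6 libraries; points are 1 library each and bars are exact 95% counting intervals. BM stands above the other 5 libraries in myeloid-gated cells (94.0 CPM of H2-Q6) and T-gated cells (413 CPM), and below them in its 9 epithelial-gated cells.

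Counts per cell showed the same split. H2-Q6 and H2-Q7 together reached 3 or more UMIs in 33 of 2350 myeloid-gated GVHD cells (1.40%), against 1095 of 2132 BM cells (51.4%), and in 1.13% to 1.69% of myeloid-gated cells of the other 4 libraries. In BM those cells held 90.3% of the UMIs of both genes, against 17.9% in GVHD. At least 1 UMI was found in 22.1% of GVHD and 79.5% of BM myeloid-gated cells, whose median depths were 17148 and 12843 UMIs. Of T-gated cells 17.2% in GVHD and 95.9% in BM had at least 1 UMI, so 6 of 146 BM T-gated cells had none. Thinned to 2000 UMIs per cell, with 70 GVHD and 99 BM cells left out as too shallow, 2.19% of GVHD (1.63 to 2.88) and 29.7% of BM myeloid-gated cells (27.7 to 31.7) held a UMI of H2-Q7.

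No gated cell type is known to lack class I, so no share of free RNA could be read for these genes. The 12 epithelial markers summed to 37.8 to 191 CPM in myeloid-gated cells of the 6 libraries and to 15606 to 28707 CPM in epithelial-gated cells. GVHD was at 60.4 and BM at 37.8 CPM in myeloid-gated cells. The 12 fibroblast and endothelial markers, all detected, moved the other way, at 32.0 CPM in GVHD and 138 in BM myeloid-gated cells and 27.9 to 56.7 CPM in those of the other 4 libraries, so they were highest in BM together with H2-Q6. The part of other cells' RNA in the result was not tested.

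Set against the classical heavy chains of the same cells, which removes the scaling of a library, H2-Q6 and H2-Q7 were 0.304 per 100 UMIs of H2-K1 and H2-D1 in myeloid-gated GVHD cells (0.282 to 0.327) and 7.19 in BM (7.04 to 7.35). The other 4 libraries lay between 0.458 and 0.526. In T-gated cells this ratio was 1.74 per 100 in GVHD and 28.0 in BM, and 0.548 to 1.30 in the other 4. Epithelial-gated cells had 9.59 per 100 in GVHD (7.99 to 11.4) against 1.78 in BM (0.362 to 5.28), and 10.2 to 13.3 in the other 4. The ratio thus differed about as widely between gates of 1 library as between libraries. Whether the epithelial-gated cells were of donor or recipient origin was not determined. Cell type and origin therefore cannot be told apart in this contrast.

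Fibroblast and endothelial cells, gated as stromal after the data were seen, had 6.01 per 100 in GVHD (3.62 to 9.43; 9 cells) and 6.54 in BM (5.65 to 7.53; 90 cells). In the other 4 libraries it was 15.8 to 19.1 per 100. BM stromal-gated cells were mixed: 47 of 90 held 0 UMIs of H2-Q6 and H2-Q7, and 25 held 3 or more, which carried 87.8% of the UMIs. H2-Q4, the neighbouring Q gene, was 0.732 per 100 in GVHD and 0.873 in BM myeloid-gated cells and did not share the split.

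**Figure D2:**
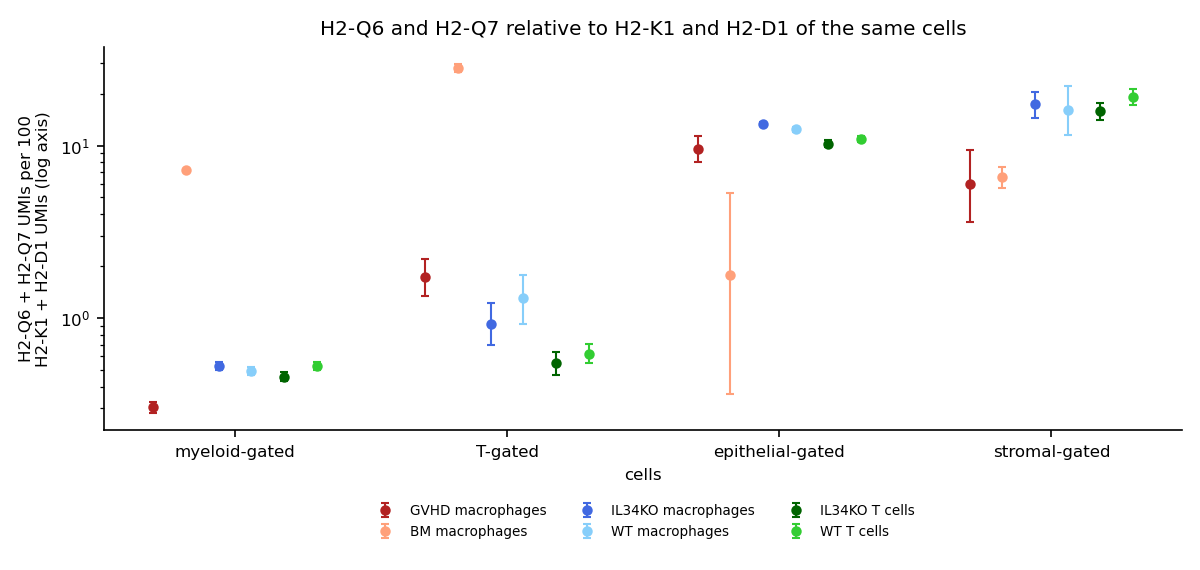
UMIs of H2-Q6 and H2-Q7 per 100 UMIs of H2-K1 and H2-D1 (log axis) in 4 gates of the 6 libraries; points are 1 library each and bars are exact 95% counting intervals. In myeloid-gated cells BM is at 7.19 and the other 5 libraries are between 0.304 and 0.526, while epithelial-gated cells are at 9.59 to 13.3 in every library but BM (1.78).

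The 2 genes did not move as one. H2-Q6 gave 6.97% of their joint UMIs in GVHD (5.18 to 9.13) and 33.2% in BM (32.2 to 34.2) myeloid-gated cells, 10.4% to 16.9% in those of the other 4 libraries, and 20.3% to 23.9% in epithelial-gated cells outside BM. Neutrophil-gated cells had 2.87% in the macrophage library labelled IL34KO (524 cells) and 0.962% in WT (220 cells). H2-Q7 in these cells was at 132 CPM in IL34KO (113 to 154) and 165 CPM in WT (134 to 199.5). Myeloid-gated cells of the same libraries had 20.7 and 18.8 CPM. BM had 0 neutrophil-gated cells to set beside them. The transcripts are alike: 25.3% of the 60-base windows of H2-Q6 transcripts and 22.1% of those of H2-Q7 also occur in another gene's transcripts, against 5.89% for H2-K1 and 0 of 801 for B2m. Of the windows of H2-Q6 11.9% occur in H2-Q7, and of those of H2-Q7 5.29% occur in H2-Q6. How reads from these last windows were counted touches the split between H2-Q6 and H2-Q7. Windows shared with further genes, such as H2-Q4 and H2-D1 for H2-Q6 and H2-Q10 and H2-Q5 for H2-Q7, make the levels of both uncertain too.

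Within the BM library the level depended on the kind of myeloid cell. Cells with more markers of mature macrophages (such as Cd163 and Mrc1) had 103 CPM of H2-Q6 (99.1 to 107; 1701 cells), against 29.1 in cells with more monocyte markers (22.3 to 37.3; 146 cells). H2-Q7 was at 204 CPM in the mature and 75.0 CPM in the monocyte cells. The direction was the same for H2-Q6 in every other library. In the WT T-cell library 975 mature cells had 16.1 CPM of H2-Q6 (13.3 to 19.4). Its 3577 monocyte cells had 2.59 (2.02 to 3.26). The IL34KO T-cell library had 10.1 CPM in mature and 1.49 in monocyte cells. These values were 18.9 and 2.57 in the IL34KO and 12.9 and 1.93 in the WT macrophage library. In GVHD they were 1.95 and 0.898, with 2 UMIs in mature cells. Mature cells were 67 and monocyte cells 1690 in GVHD, against 1701 and 146 in BM, so subset and library moved together.

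Within each subset GVHD was below BM by a smaller fold than over all myeloid-gated cells. Mature cells had 1.95 CPM of H2-Q6 in GVHD (0.237 to 7.06; 2 UMIs) against 103 in BM, 52.7-fold lower (14.6 to 435), and monocyte cells 0.898 in GVHD (0.632 to 1.24) against 29.1 in BM, 32.4-fold lower (21.2 to 50.1). H2-Q7 was 8.71-fold lower in mature (5.85 to 13.6) and 6.10-fold lower in monocyte cells (5.07 to 7.30). In the mature subset 58.7% of BM cells held 3 or more UMIs of H2-Q6 and H2-Q7, against 4.48% in GVHD and 6.80% to 12.2% in the other 4 libraries. In BM monocyte cells the share was 14.4%, against 1.48% in GVHD.

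**Figure D3:**
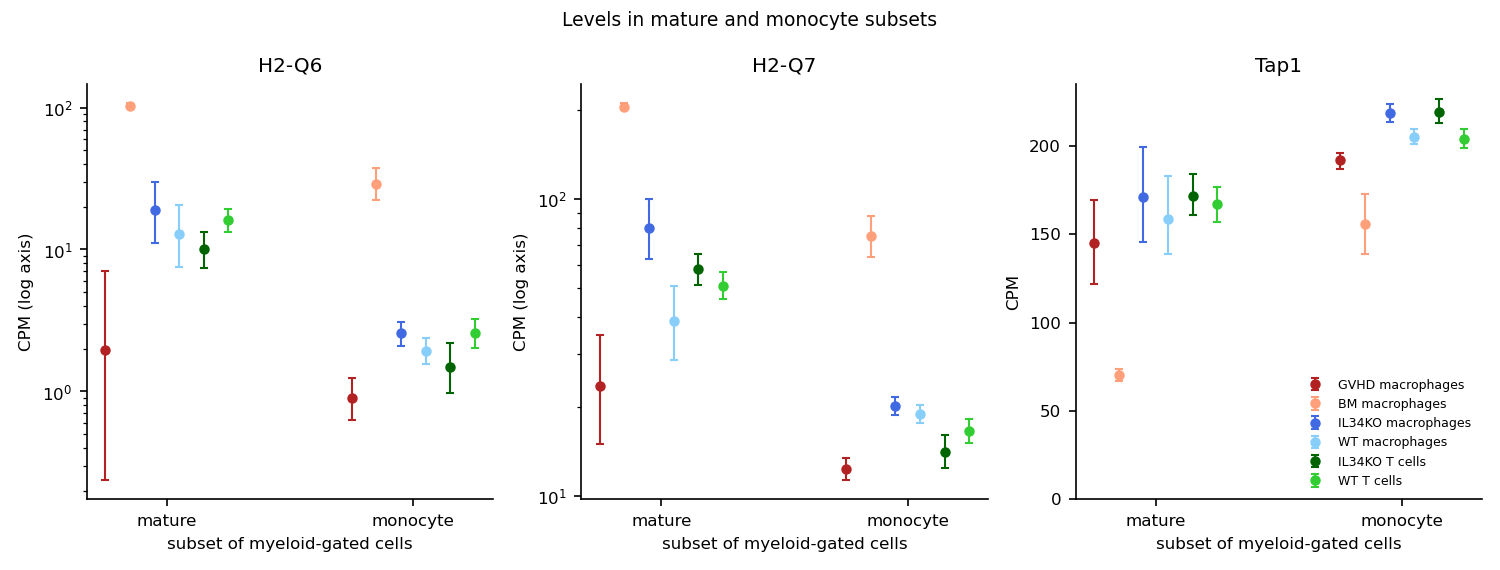
H2-Q6 and H2-Q7 (log axes) and Tap1 (linear axis) in CPM in mature and monocyte subsets of the myeloid-gated cells of the 6 libraries; points are 1 library each and bars are exact 95% counting intervals. In BM H2-Q6 is higher in mature cells (103 CPM) than in monocyte cells (29.1 CPM), and Tap1 is lower (70.3 and 156 CPM).

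BM barcodes that were also present in the GVHD library and had been left out held an intermediate level. Their 1869 myeloid-gated barcodes had 14.7 CPM of H2-Q6 (11.6 to 18.4) and 52.6 CPM of H2-Q7 (46.6 to 59.1). Their joint ratio to H2-K1 and H2-D1 was 1.49 per 100, between GVHD (0.304) and the BM cells used (7.19). Since the labels name neither donor nor recipient strain, a difference in MHC haplotype between the cells of the libraries and a difference in transcription of H2-Q6 and H2-Q7 cannot be told apart.

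Of the 10 genes, 2 were at least 1.5-fold higher and 3 at least 1.5-fold lower in myeloid-gated cells of GVHD than of BM. Over all genes measured, meaning that 1 library of the pair reached 5 CPM, the shares were 15.0% higher and 18.8% lower. The higher genes were Tap1 and Tap2, and the lower ones H2-Q6, H2-Q7 and H2-T23; the median log2 ratio was −0.01 for the 10 genes and −0.01 for all. H2-Q6 passed the 5 CPM floor through BM alone. In T-gated cells 0 of 10 were higher and 3 lower, H2-Q6, H2-Q7 and H2-T22, against 23% higher and 18.2% lower of all genes. Medians there were −0.36 for the 10 genes and 0.12 for all.

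Tap1, which with Tap2 forms the peptide pump, was at 187 CPM in GVHD (183 to 191) against 79.7 in BM (76.6 to 82.9), and at 214, 200.3, 208 and 196 CPM in the IL34KO and WT macrophage and the IL34KO and WT T-cell libraries. BM was the low library and the other 5 lay between 187 and 214 CPM. The ratio of GVHD to BM was 2.34 (2.24 to 2.45). In T-gated cells Tap1 was at 156 CPM in GVHD and 154 in BM, a ratio of 1.01 (0.805 to 1.27). BM mature cells had 70.3 CPM of Tap1 (67.1 to 73.6) and BM monocyte cells 156 (139 to 173), against 145 and 192 in GVHD, a ratio of 2.06 in mature (1.73 to 2.43) and 1.23 in monocyte cells (1.10 to 1.38), which did not reach 1.5-fold. In CD8 cells of the T gate the ratio of Tap1 was 0.647 (0.461 to 0.898; 58 GVHD and 78 BM cells) and in CD4 cells 2.06 (0.983 to 4.97; 57 and 13 cells).

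Tap2 was at 124 CPM in GVHD and 66.5 in BM myeloid-gated cells, a ratio of 1.87 (1.78 to 1.96). In mature cells it was at 101 CPM in GVHD and 61.6 in BM, and in monocyte cells at 126 and 113. In T-gated cells Tap2 was at 126 CPM in GVHD and 92.9 in BM. B2m, the light chain shared by all these heavy chains, was at 4067 CPM in GVHD and 2971 in BM myeloid-gated cells, 1.37-fold higher, but at 2565 and 3116 CPM in T-gated cells, a ratio of 0.823 (0.781 to 0.868). Its direction thus differed between the gates.

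The classical chains differed little between GVHD and BM. H2-K1 was at 2185 CPM in GVHD and 1774 in BM myeloid-gated cells (ratio 1.23) and at 2429.7 and 2858 in T-gated cells (0.850). H2-D1 was at 2262 and 2159 CPM in myeloid-gated cells of GVHD and BM (1.05) and at 1830.1 and 2519 in T-gated cells (0.726). None of these ratios reached 1.5-fold.

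Among the non-classical genes outside H2-Q6 and H2-Q7, H2-Q4 was at 32.5 CPM in GVHD and 34.3 in BM myeloid-gated cells (0.947; 0.877 to 1.02). H2-T23 encodes Qa-1, the ligand of the CD94/NKG2 receptors. Its level in myeloid-gated cells was 154 CPM in GVHD (151 to 158) and 245 in BM (239.5 to 251), 1.59-fold lower in GVHD. In mature cells H2-T23 was at 189 CPM in GVHD and 258 in BM, and in monocyte cells at 152 and 165. The difference was thus smaller within each subset, and the subsets differed in share between the libraries. H2-T22, a ligand of some gamma-delta T cells, was at 43.3 and 47.9 CPM in myeloid-gated cells of GVHD and BM, and at 74.3 and 157 in T-gated cells, 2.12-fold lower. H2-T22 shares 27.4% of its 60-base windows with other genes, H2-T10 first, so its counts are uncertain.

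Lists of genes around the pathway were counted by the same fold, beside 15.0% higher and 18.8% lower of all genes in myeloid-gated cells. Of 12 loading and processing genes 7 were higher and 1 lower in GVHD than in BM myeloid-gated cells, with a median log2 ratio of 0.77. The immunoproteasome subunits Psmb9 (243 against 107 CPM), Psmb8 (492 against 220.3) and Psmb10 (153 against 70.1) were higher, and the chaperone Hspa5 (2258 against 5661) was lower. Of 12 regulators 3 were higher and 1 lower. Irf1, an interferon-induced transcription factor, was at 237 CPM in GVHD and 134 in BM, a ratio of 1.76 (1.70 to 1.83), and Socs1, a feedback inhibitor of cytokine signals, at 39.2 CPM in GVHD and 16.9 in BM. Nfkb1, an NF-kappaB subunit, was the lower one, at 927 CPM in GVHD and 1403 in BM. Nlrc5, the class I transactivator, was at 70.2 CPM in GVHD and 53.9 in BM and did not reach 1.5-fold. Of 12 reporters of interferon-gamma 11 were higher and 0 lower (median 1.58), led by the chemokine Cxcl9 at 984 CPM in GVHD and 129 in BM. Of 11 reporters of type I interferon 0 were higher and 6 lower (median −0.67), such as Ifit3 at 5.59 and 26.3 CPM.

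T-gated cells had other counts. Of 12 loading and processing genes 1 was higher and 1 lower in GVHD (median −0.13), of 11 measured interferon-gamma reporters 2 were higher and 4 lower (−0.34), and of 11 type I reporters 0 were higher and 10 lower (−1.64), such as Isg15 at 49.5 CPM in GVHD and 191 in BM. The summed type I reporters were at 209 CPM in GVHD (180.5 to 240.4) and 664 in BM T-gated cells (618 to 714). The summed interferon-gamma reporters were at 842 CPM in GVHD and 1392 in BM T-gated cells. In these cells both sums and H2-Q6 were higher in BM. In myeloid-gated cells the interferon-gamma reporters were lower in BM, 3363 CPM in GVHD against 921 in BM, while H2-Q6 was higher there. The summed type I reporters were at 491 CPM in GVHD and 553 in BM myeloid-gated cells. The part of both lists in the Q gene levels was not tested.

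Of 4 MHC class II genes 0 were higher and 3 lower in myeloid-gated cells of GVHD, where 15.0% and 18.8% of all genes were, among them H2-Eb1 at 3605 CPM in GVHD and 6978 in BM. Of 8 genes for class I receptors 4 were measured in myeloid-gated cells and 0 passed 1.5-fold. In T-gated cells of 7 measured 2 were higher, among them Klrd1, which encodes CD94 (279 CPM in GVHD and 114 in BM), and 1 was lower, Cd8b1 (191 and 321 CPM). The makeup of the T gate differed, with 58 CD8 and 57 CD4 cells in GVHD and 78 and 13 in BM. In CD8 cells alone H2-Q6 was at 4.57 CPM in GVHD and 425 in BM, and in CD4 cells alone at 10.2 in GVHD and 339 in BM.

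Likeness was read as the Pearson r of log2(CPM + 5) over the 18 pairs of library and gate. Among 9655 genes, those whose levels followed H2-Q6 most closely were Nckap5 (0.91), Matn2 (0.88), Vegfc (0.84), Fbln1 (0.83) and Rhobtb1 (0.83). H2-Q7 stood at 0.98, H2-T22 at 0.53, and the other 7 of the 10 genes between −0.35 and 0.10. Those most like Tap1 were Klhdc4 (0.96), Tor1b, Snx17, Psmb8 and Irak1 (0.95 each), with H2-K1 at 0.89 and B2m at 0.74. Gates of 1 library share its depth and free RNA, so the 18 points are not independent and the values describe likeness only. The 9 epithelial-gated BM cells are 1 of the points.

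The comparison of IL34KO with WT macrophages asks about IL-34 in the recipient. In myeloid-gated cells 9 of the 10 genes were measured and 0 were higher or lower by 1.5-fold, against 0.758% and 1.53% of all genes. H2-Q6 was under the floor in both libraries, at 2.84 and 2.18 CPM. Ratios of the library labelled IL34KO to WT ran from 0.949 for Tap2 (76.6 and 80.7 CPM) to 1.23 for H2-Q4 (35.1 and 28.4 CPM), with H2-K1 at 1.11, H2-D1 at 0.954, B2m at 1.06 and Tap1 at 1.07. In epithelial-gated cells, where IL-34 is made according to the study's title, 0 of 10 passed in either direction, against 2.64% and 1.14% of all genes, and H2-Q6 was at 58.2 CPM in the library labelled IL34KO and 60.6 CPM in WT (0.961; 0.879 to 1.05).

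In T-gated cells of the macrophage libraries 0 of 10 were higher and 1 was lower, H2-Q6, against 13.6% and 10.1% of all genes. H2-Q6 rested on 8 UMIs in each library, a ratio of 0.459 with an interval of 0.150 to 1.40 that spans 1, and it passed the floor through WT alone (4.55 CPM in the library labelled IL34KO and 9.90 in WT). In all 3 gates together 0 of 9 were higher, against 0.180% of all genes. Loading and processing genes (0 of 12 in either direction in each gate) had medians of 0.06, −0.04 and 0.07 in the myeloid, T and epithelial gates.

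The T-cell libraries labelled IL34KO and WT differed more. In myeloid-gated cells H2-T23 (1.54-fold) and Tap2 (1.82-fold) were higher and 0 of 9 lower, against 0.852% and 0.399% of all genes. In T-gated cells H2-T22 (1.52-fold) and Tap2 (1.81-fold) were higher and 0 of 9 lower, against 2.23% and 1.45%. In epithelial-gated cells H2-T23 (2.88-fold) and Tap2 (2.10-fold) were higher and 0 of 10 lower, against 3.24% and 1.89%. Tap2 was higher in all 3 gates, as were 0.306% of all genes (24 of 7837). Medians for the measured genes were 0.40, 0.34 and 0.41 on the log2 scale in the 3 gates, against 0.01, 0.07 and 0.09 for all genes.

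H2-D1 was at 2666 CPM in myeloid-gated cells of the T-cell library labelled IL34KO and 1827 in WT, a ratio of 1.46 (1.45 to 1.47), and its ratio was 1.41 in both the T and the epithelial gate. H2-K1, the other classical chain, had ratios of 0.968, 1.01 and 1.10 in the myeloid, T and epithelial gates. B2m had ratios of 1.32, 1.27 and 1.29, and Tap1, the partner of Tap2, 1.06, 1.03 and 1.15. Genes of 1 pathway therefore divided into those with ratios near 1 in these libraries (H2-K1 and Tap1) and those above it (H2-D1, H2-T23, H2-T22, B2m and Tap2). The loading and processing list had 0 of 12 higher or lower in each gate, with medians of 0.03, 0.03 and 0.11.

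Across all 6 libraries these genes did not follow the label IL34KO. The share of H2-D1 in the UMIs of H2-K1 and H2-D1 in myeloid-gated cells was 50.9% in GVHD, 54.9% in BM, 35.2% and 38.6% in the IL34KO and WT macrophage libraries, and 49.8% and 39.7% in the IL34KO and WT T-cell libraries. In T-gated cells it was 43.0% in GVHD, 46.9% in BM, 32.2% and 32.1% in the IL34KO and WT macrophage libraries, and 42.0% and 34.1% in the IL34KO and WT T-cell libraries. The T-cell library labelled IL34KO lay with GVHD and BM, and the macrophage library labelled IL34KO with both WT libraries. Tap2 gave 124 CPM in GVHD, 66.5 in BM, 76.6 and 80.7 in the IL34KO and WT macrophage libraries, and 129.8 and 71.4 in the IL34KO and WT T-cell libraries. H2-T23 gave 154, 245, 157, 147, 277 and 179.9 CPM in that order. The labels name both 5′ and 3′ kits without saying which library had which, so kit and label cannot be told apart.

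**Figure D4:**
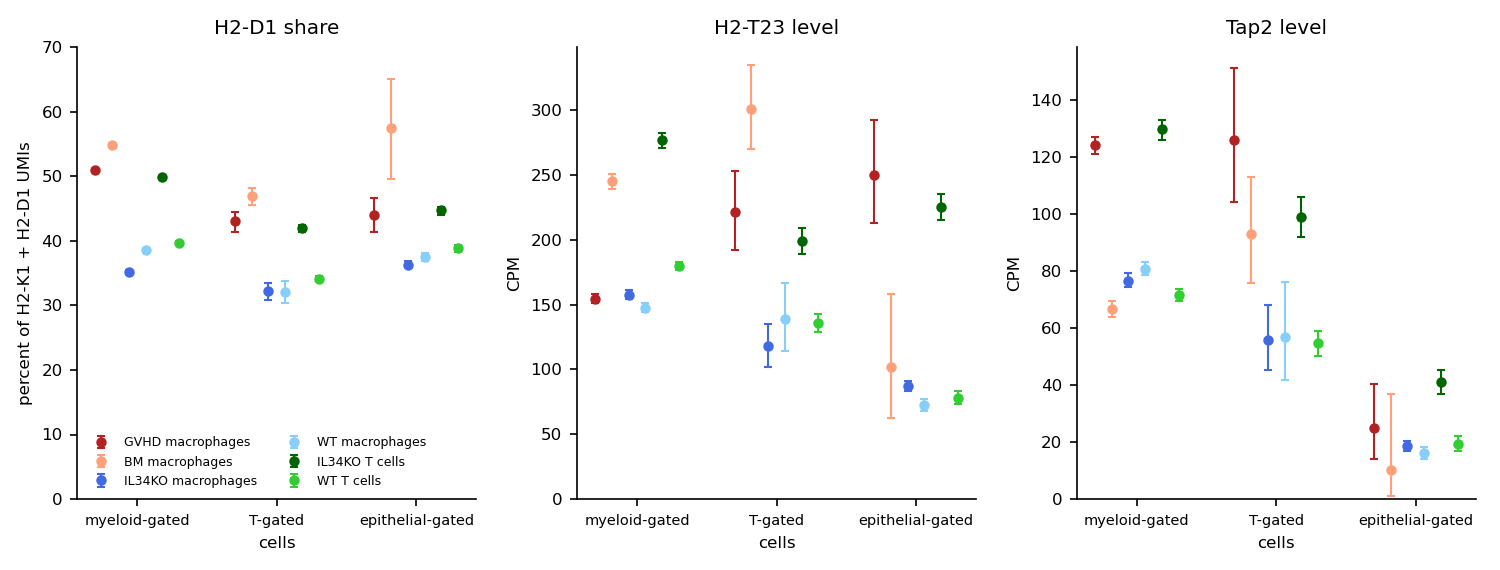
Share of H2-D1 in the UMIs of H2-K1 and H2-D1 (percent), and levels of H2-T23 and Tap2 (CPM), in 3 gates of the 6 libraries; points are 1 library each and bars are exact 95% counting intervals. The H2-D1 share in myeloid-gated cells is 49.8% to 54.9% in GVHD, BM and the T-cell library labelled IL34KO, and 35.2% to 39.7% in the other 3.

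H2-T23 in epithelial-gated cells also separated the libraries. It was at 250.2 CPM in GVHD (213 to 292) and 102 in BM (62.5 to 158), at 87.3 and 72.3 in the IL34KO and WT macrophage libraries, and at 225 and 77.9 in the IL34KO and WT T-cell libraries. GVHD and the T-cell library labelled IL34KO were high and the other 4 low. Summed type I interferon reporters in the same epithelial-gated cells were 242, 51.1, 287, 222, 486 and 380.5 CPM in that order. GVHD had 37 and BM 9 such cells. The part of interferon in the H2-T23 levels was not tested.

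**Figure D5:**
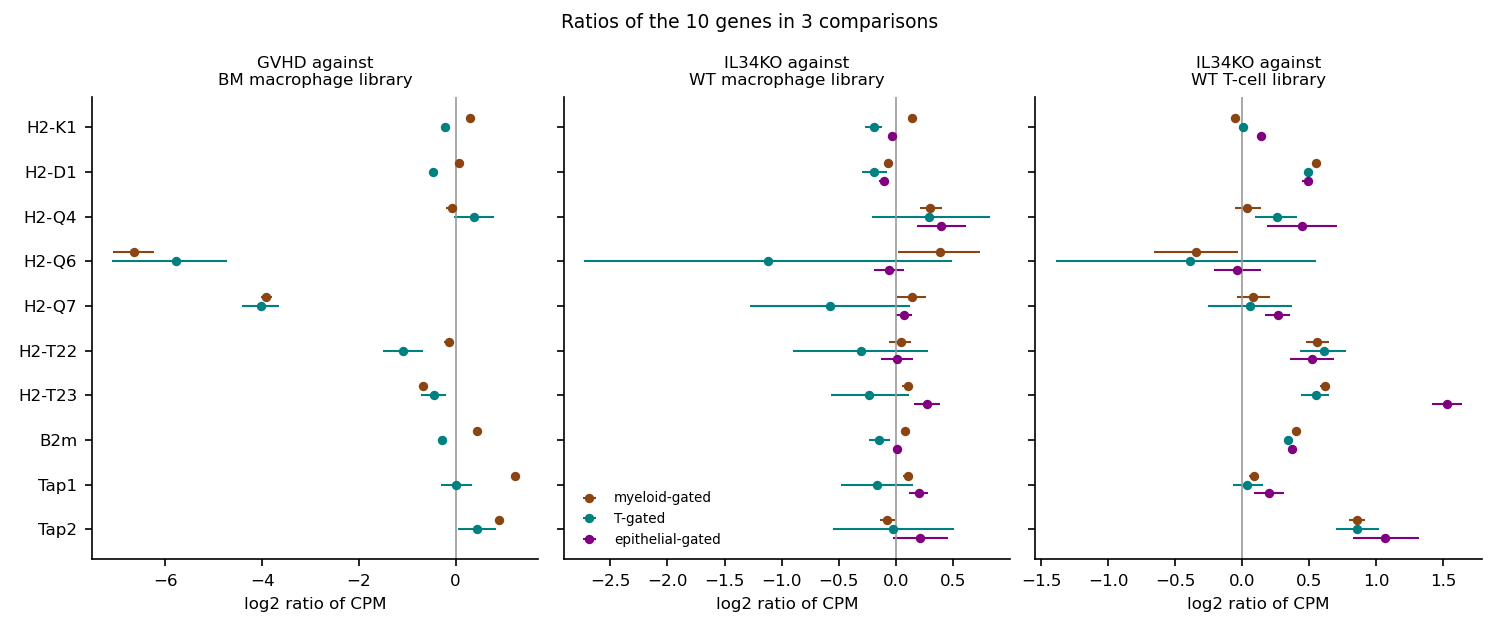
Log2 ratios of CPM of the 10 genes in the 3 comparisons (each with its own axis range), by gate; points are 1 ratio each and bars are exact 95% counting intervals, and the epithelial gate is left out for GVHD against BM, where BM had 9 such cells. H2-Q6 (−6.64) and H2-Q7 (−3.91) stand far below the rest for GVHD against BM, and Tap2 is above 0 in all 3 gates for the T-cell libraries (0.86, 0.86 and 1.07).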

How the data were processed

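Single-cell RNA libraries were made with 10x kits (5′ and 3′ both named) from live sorted colon cells, per the labels' protocols. The authors deposited counts of UMIs per gene and barcode for each of the 6 libraries, made with Cell Ranger 7.0.1 on mm10, per the submitters' processing notes. The matrices held no barcode under 500 UMIs. How reads matching several genes were counted is not stated.

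Barcodes needed 500 detected genes and no more than 10% mitochondrial UMIs, and BM barcodes also found in GVHD were dropped. A cell was gated as myeloid, T or epithelial with at least 4 of 12 markers and 3 more than for any other list (neutrophil, B and plasma, stromal included), which also left out cells mixing lists; no doublet caller was run. UMIs were summed per library and gate and divided by the gate total (CPM). Intervals are exact (95%): Poisson for levels, conditional binomial for ratios, Clopper-Pearson for shares of cells, which were thinned to 2000 UMIs. With 1 library per group no p-value was computed. A gene counted as measured when either library of a pair reached 5 CPM. The interval code was tested on simulated counts.

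All 10 genes are named, with up to 4 members of each list furthest in either direction (at least 20 CPM in 1 library) and the 5 genes most like H2-Q6 and Tap1. Fold-direction counts over lists are descriptions. A regulator that the naming rule selects is not reported here. The members and lists were chosen with earlier results of these data known. Stromal and neutrophil gates, counts per cell and ratios in subsets and 1 motif (GAANNGAA) were added after seeing the data. Alternatives covered scaling (TMM from edgeR 4.0.16, median of ratios from DESeq2 1.42.0, factors only), filters, gates, cell weighting, depth, floor, fold and shared barcodes. Python 3.11.15, numpy 2.4.6, scipy 1.17.1, pandas 2.3.3, matplotlib 3.10.9 and R 4.3.3 were used. Coordinates are from GENCODE on GRCm38 and promoters from RefSeq on GRCm38.p6.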

Additional observations from a re-analysis of the deposited data

Results flagged for a closer look

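H2-Q6 had opposite directions in different cells in GVHD against BM: its log2 ratio was −6.64 in myeloid-gated and −5.78 in T-gated cells, and 3.24 in epithelial-gated cells. H2-Q7 did the same, at −3.91 in myeloid-gated, −4.03 in T-gated and 4.01 in epithelial-gated cells. H2-T23 was at −0.67 in myeloid-gated and 1.29 in epithelial-gated cells. The BM side of each epithelial value rests on 9 cells, and the differences between cell types were not tested.

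Tap2 had a log2 ratio of the library labelled IL34KO to WT of 0.86 in myeloid-gated cells of the T-cell libraries and −0.08 in those of the macrophage libraries. This difference was not tested, and Il34 was not lower in either library labelled IL34KO.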

How the results depend on the processing

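Of the 14 alternatives, those of floor and fold changed counts only and gave no new ratio, and those of shared barcodes covered GVHD against BM alone. The rest gave, with the latter, 870 log2 ratios of the 10 genes, of which 250 had been at least 1.5-fold before the change. Of these 250, 7 changed sign, all for GVHD against BM in epithelial-gated cells, where few BM cells remained. Of the 620 smaller ones 49 changed sign, each with a log2 ratio of at most 0.39 in size before the change, such as H2-Q4 in myeloid-gated (−0.11 to 0.10) and Tap1 in T-gated cells (−0.10 to 0.57) of GVHD against BM. The 7 large ratios that changed sign, in epithelial-gated cells of GVHD against BM, came from 2 of the alternatives. With the stricter barcode filter they were H2-Q4 (−2.75), H2-Q6 (−1.49), Tap1 (−0.21) and Tap2 (−2.49). With cells thinned to 2000 UMIs they were H2-Q4 (−3.58), Tap1 (−1.26) and Tap2 (−3.58). H2-Q6 ranged from −6.85 to −5.70 in myeloid-gated and −6.07 to −5.28 in T-gated cells over the alternatives, H2-Q7 from −4.27 to −3.70 and −5.06 to −3.93, and Tap1 in myeloid-gated cells from 1.02 to 1.53. In subsets chosen after seeing the data H2-Q6 was at −5.72 (mature) and −5.02 (monocyte), H2-Q7 at −3.12 and −2.61, and Tap1 at 1.04 and 0.30. TMM moved the median of all genes by 0.12 in the myeloid gate of GVHD against BM and by −0.10 in the epithelial gate of the T-cell libraries, and median-of-ratios scaling by −0.12 and −0.11 in the T and epithelial gates of GVHD against BM.

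Of 200 counts 24 moved. For GVHD against BM, a fold of 2 left 1 gene higher in myeloid-gated cells; in T-gated cells 1 was higher with cells weighted equally or thinned, and 5 lower without the deepest cells. For the macrophage libraries labelled IL34KO and WT, the count lower in T-gated cells was 2 under either scaling and either barcode filter, 0 with the looser gate or a floor of 20 CPM and 3 with the stricter gate, and thinning gave 1 higher; in epithelial-gated cells the stricter gate gave 1 lower and thinning 1 higher. For the T-cell libraries TMM left 1 higher in the myeloid and T gates, median of ratios and thinning 1 in the T gate, and a fold of 2 gave 0 in both. In epithelial-gated cells 4 were higher with the stricter filter, the stricter gate or thinning, and 5 with cells weighted equally. The cause was not tested.

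No paired analysis was possible because each group is 1 library and no result comes from a test. Depth limits H2-Q6 in myeloid- and T-gated cells outside BM, and every epithelial value of BM.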

Other observations

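Of the 20 other class I genes in the tables, 6 were measured in myeloid-gated cells of GVHD and BM, and 1 was higher and 2 lower, where 15.0% and 18.8% of all genes were. Cd1d1, which presents lipids to natural killer T cells, was at 83.8 CPM in GVHD and 16.0 in BM, a ratio of 5.22 (4.76 to 5.74). H2-M2, an M-region heavy chain, was at 13.2 CPM in GVHD and 196 in BM, 14.8-fold lower, close to the fold of H2-Q7 in the same cells. In the other libraries H2-M2 was not low: it was at 108 and 112 CPM in the IL34KO and WT macrophage libraries and at 185 and 159.6 CPM in the IL34KO and WT T-cell libraries. The order of libraries for H2-M2 was thus unlike that for H2-Q7. H2-M3, which presents formylated bacterial peptides, was at 63.0 CPM in GVHD and 64.0 in BM.

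Epithelial-gated cells also expressed H2-Q2 and H2-T3, the gene of the thymus leukaemia antigen of intestinal epithelium. H2-Q2 was at 177 CPM in GVHD (146 to 213) and 40.9 in the 9 BM cells (17.7 to 80.6), a ratio of 4.33 (2.13 to 10.3). It was at 65.5 and 60.9 CPM in the IL34KO and WT macrophage libraries, and at 119.6 and 107 CPM in the IL34KO and WT T-cell libraries. H2-T3 was at 55.9 CPM in GVHD (39.2 to 77.4) with 0 UMIs in BM (up to 18.9 CPM), at 29.0 and 21.1 CPM in the IL34KO and WT macrophage libraries and at 35.4 and 33.3 CPM in the IL34KO and WT T-cell libraries. No ratio of the libraries labelled IL34KO to WT reached 1.5-fold for these 2 genes.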
